A study of Mus musculus with 15 samples.

Results

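In mouse embryos without Apela, 483 genes outside chromosome 8 had all 12 knockout values on the same side of all 3 wild-type values, of 15525 genes tested there; 239 lay above the wild-type range and 244 below it. Apela encodes a small secreted peptide that signals through the apelin receptor Aplnr. The genes were chosen by that non-overlap alone, so the values that chose them are a description, and a call in the same comparison adds no independent support. Chromosome 8, which carries Apela and whatever stayed linked to it, was left aside. The separated genes are called so below, and a separated gene is called higher or lower by the side on which its knockout values lay.

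RNA was measured in 15 individual whole embryos at embryonic day 7.5, during gastrulation, with the extraembryonic tissues included. The 3 wild-type embryos and the 12 Apela KO embryos all came from mixed C57Bl6 and CD-1 stock. The knockout embryos belonged to strain NEO-IN (embryos 1 to 6) or strain NEO-OUT (embryos 7 to 12), and the strains were weighted equally. Null embryos were bred from homozygous knockout parents, so that wild-type and knockout embryos cannot share a litter; genotype, litter and parental background cannot be told apart here. Stage had been matched by morphology. Values are normalized counts, reads per gene divided by a size factor for each library. A gene is said to have risen or fallen where limma over all genes gave a Benjamini-Hochberg adjusted p under 0.05. A value in parentheses directly after a gene is its log2 fold change of knockout over wild-type unless named otherwise, and a value after a left-out embryo is the limma adjusted p in that fit.

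Apela itself (chromosome 8) was at 2004, 1902 and 1082 normalized counts in wild-type, at 5.83 to 25.9 (median 9.73) in NEO-IN and at 50.6 to 107 (median 60.6) in NEO-OUT, so no knockout embryo came near the wild-type range. Libraries held 48.8 to 61.3 M reads and detected 20427 to 21059 genes. Xist RNA was found in each wild-type library, with at most 2.1 Y-linked normalized counts; Y-linked levels were high in NEO-IN 1, 2 and 3 and in NEO-OUT 9 and 12. Macrophage and maternal immune markers, 20 listed, summed to 198 to 262 normalized counts in wild-type, 227 to 275 in NEO-IN and 198 to 5054 in NEO-OUT, where only NEO-OUT 9 stood apart. Without NEO-OUT 9, 510 genes were separated and 366 were called outside chromosome 8. Trophoblast markers, 27 listed with the syncytin gene Synb at 0 in every library, summed to 137457 to 146652 in wild-type, 140170 to 155747 in NEO-IN and 138310 to 152681 in NEO-OUT. The score of that list, a mean centred log2 value, lay between -0.28 and -0.14 in wild-type and between -0.25 and 0.40 in the knockouts; with it in the model 76 genes were called outside chromosome 8 in place of 391.

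Gastrulation moves epiblast cells through the primitive streak, where they lose epithelial junctions and spread over a fibronectin-rich matrix as mesoderm, under Nodal, Wnt, FGF and Notch signals. Secreted and membrane proteins, among them receptors and matrix, are folded and glycosylated in the endoplasmic reticulum. When folding falls behind, the unfolded protein response raises chaperones of that compartment, such as the Hsp70 protein BiP encoded by Hspa5. Mitochondria keep a small circular genome of their own, read from both strands as long precursors, and import nearly all their other proteins from the cytosol.

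Most separated genes differed from wild-type by little. The higher genes had a median log2 fold change of 0.22 and the lower genes one of -0.38, against a median of -0.00 over all genes tested outside chromosome 8. An absolute log2 fold change of 1 or more was found for 15 higher and 30 lower genes. Separation above wild-type took in 1.54% of the genes tested and separation below it 1.57%. Limma called 391 genes outside chromosome 8 (2.52%), 219 higher (1.41%) and 172 lower (1.11%). Of the 483 separated genes 212 were called (43.9%), 110 higher and 102 lower, and 179 other called genes overlapped the wild-type range. Since the same values chose and called them, nothing is read from that share. Called in each of the 15 fits that left out 1 library were 24 higher and 25 lower genes. In the fits without wild-type embryo 1, 2 or 3 the calls among the 483 numbered 73, 77 and 82. Separation rests on 3 wild-type embryos, and without wild-type embryo 1, 2 or 3 it held 1003, 926 and 920 genes.

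**Figure D1:**
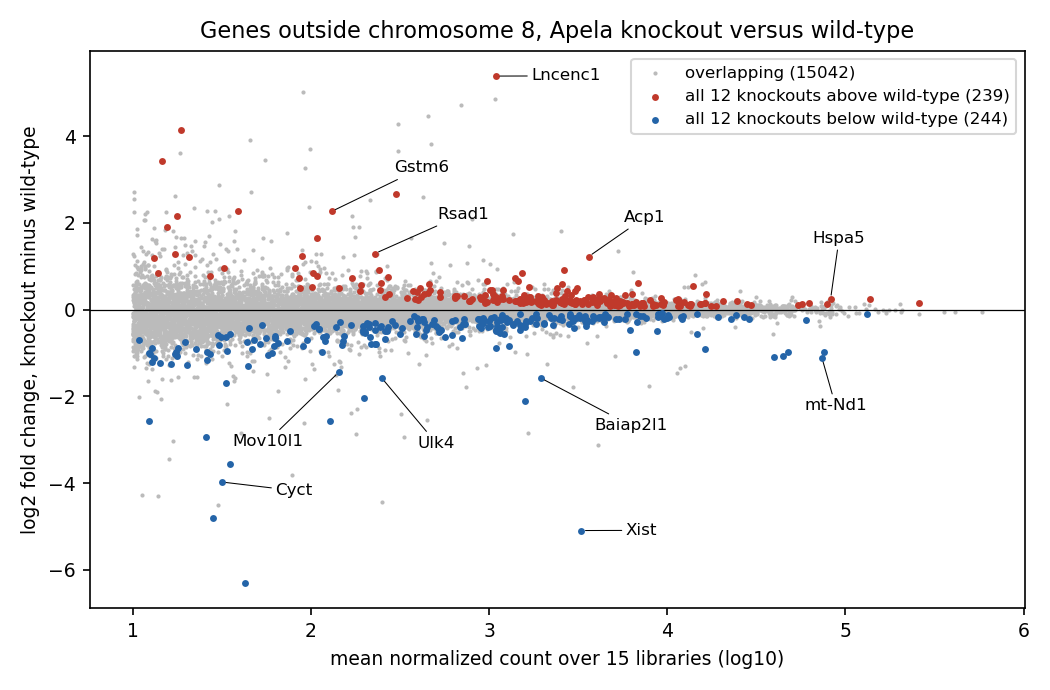
Mean normalized count over 15 libraries (log10, horizontal axis) against the log2 fold change of knockout over wild-type (vertical axis) for the 15525 genes tested outside chromosome 8, with 239 separated higher genes in red, 244 separated lower genes in blue and overlapping genes in grey. Lncenc1 and the gene model Gm37201 stand far above the zero line, and most separated genes lie close to it.

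At the edge of the rule, Tmem167b on the higher side was at 2198, 2130.3 and 2058 in wild-type and at 2198 to 2461 in the knockouts, and Tmem100 on the lower side was at 119.5, 123 and 136 and 79.5 to 119.5. The values nearest outside it were those of Ifi204, an interferon-inducible gene, and Myo15b. Ifi204 was listed at 0 in every wild-type library and also in 6 of the 12 knockouts, and Myo15b reached 729 at its lowest in wild-type against 507 to 729 in the knockouts. With a margin of 1.1-fold between the nearest values 84 genes were separated, 29 higher and 55 lower. A further 32 genes outside chromosome 8 were separated but had a mean normalized count under 10 and were not tested, 5 higher and 27 lower. Of the tested members 228 higher and 206 lower genes were protein-coding, and 6 higher and 20 lower were pseudogenes, whose reads can be shared with their parent genes. Protein-coding genes made up 89.9% of the separated genes and 88.3% of all genes tested there. The lower genes included 7 pseudogenes past a log2 change of 1. Among them Gm6756 had a log2 fold change of -6.29, Gm13337 of -4.79 and Gm7809 of -2.57, each separated by a wide gap.

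The increase with the widest gap was that of Lncenc1 (ENSMUSG00000078952.6, chromosome 13 from 97434970 to 97497007 in GRCm38), a long noncoding RNA of embryonic stem cells. Its normalized counts were 29.1, 26.7 and 37.3 in wild-type, 857 to 1469 (median 1272) in NEO-IN and 1064 to 1749.5 (median 1551) in NEO-OUT. The lowest knockout embryo was 22.4-fold above the highest wild-type embryo after the pseudocount of 1 was added to each, as in every gap given here, and the strains overlapped. Lncenc1 rose 41.8-fold (limma, log2 fold change 5.39 with SE 0.16, adjusted p = 6.66e-13). The gene model Gm37201 was also separated higher. With the 12 knockouts taken as 1 group its log2 fold change was 4.14 (limma adjusted p = 0.00497). With the trophoblast score in the model it was 3.72 and not called (limma adjusted p = 0.0696).

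Rsad1, a radical S-adenosylmethionine domain protein gene (ENSMUSG00000039096.7, chromosome 11 from 94539798 to 94549255), was at 82.1, 119 and 116 in wild-type, 215 to 303 (median 230.4) in NEO-IN and 251 to 316 (median 282) in NEO-OUT. Every knockout embryo stood clear of the wild-type range by 1.8-fold or more, and Rsad1 rose 2.45-fold (limma, log2 fold change 1.29 with SE 0.13, adjusted p = 2.06e-05). Pid1, an adaptor that dampens insulin signalling in adipocytes, was at 883, 960.2 and 934 in wild-type and at 1326 to 2088 (median 1652) in the knockouts, a clear gap in both strains. It rose 1.79-fold (limma, log2 fold change 0.84 with SE 0.11, adjusted p = 0.000521). Prcp, a lysosomal peptidase known to cleave peptide hormones such as angiotensin, was at 2309, 1666 and 1608 in wild-type and at 2400.1 to 3122 (median 2738) in the knockouts. Wild-type embryo 1 lay far above the other wild-type embryos and close under the lowest knockout, and Prcp rose 1.5-fold (limma, log2 fold change 0.58 with SE 0.08, adjusted p = 0.000637). Lncenc1, Rsad1, Pid1 and Prcp kept their calls in each of the 15 fits that left out 1 library.

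Acp1, a low molecular weight tyrosine phosphatase, was at 1703, 1711 and 1622 in wild-type and spread from 1812 to 5637 in the knockouts. NEO-IN 3 was the lowest of them, close to the wild-type range. Acp1 rose 2.33-fold (limma, log2 fold change 1.22 with SE 0.23, adjusted p = 0.00934), but without wild-type embryo 1, 2 or 3 its limma adjusted p was 0.0541, 0.0515 and 0.0548. Gstm6, a glutathione S-transferase of the mu class, was at 17.7, 25.7 and 37.3 in wild-type and 43.6 to 345 (median 104) in the knockouts, and rose 4.81-fold (limma, log2 fold change 2.27 with SE 0.53, adjusted p = 0.0283), but without wild-type embryo 1, 2 or 3 its limma adjusted p was 0.158, 0.119 and 0.0676. Its neighbour Gstm7 lay on the opposite side, at 249, 216 and 212 in wild-type and 109 to 172 (median 126) in the knockouts, and fell (limma, log2 fold change -0.81 with SE 0.13, adjusted p = 0.00305); it kept its call in each of the 15 fits. These mu class genes are close copies, and reads shared between them could be split by the counting. The other increases of the largest 15 with a mean of at least 50 and a proper symbol included Unc5cl (0.97), the bZIP factor gene Batf3 (0.72), Arrdc4, an arrestin-like gene (0.65), and the X-linked Bex4 (0.62), as log2 fold changes. Unc5cl and Bex4 lost their calls in 1 fit each, without wild-type embryo 1 (limma adjusted p = 0.104) and without wild-type embryo 3 (0.0552), and Arrdc4 without wild-type embryo 1 (0.142). For Batf3, the call held in 5 of 15 fits that each left out 1 library, with a limma adjusted p of 0.151, 0.178 and 0.118 without wild-type embryo 1, 2 or 3.

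Among the decreases, Baiap2l1 (ENSMUSG00000038859.7, chromosome 5 from 144264526 to 144358112), an adaptor that links membrane curvature to actin, was at 3374, 4220.1 and 4912 in wild-type, 1265 to 1649 (median 1340.0) in NEO-IN and 1119 to 1609 (median 1362) in NEO-OUT. The strains overlapped, and the highest knockout was 2.04-fold under the lowest wild-type embryo. Baiap2l1 was 2.98-fold lower (limma, log2 fold change -1.58 with SE 0.11, adjusted p = 3.81e-07). Ulk4, a pseudokinase of motile cilia, was at 592, 459 and 539 in wild-type and at 116 to 232 (median 188) in the knockouts. It was 2.99-fold lower (limma, log2 fold change -1.58 with SE 0.16, adjusted p = 2.15e-05), with a gap of 1.98-fold. Mov10l1, a helicase of the piRNA pathway in germ cells, was at 228, 309 and 312 and 54.9 to 187 (median 98.9) (limma, log2 fold change -1.44 with SE 0.23, adjusted p = 0.00264). All these decreases held their calls in each of the 15 fits, as did those of Alx1, a homeobox gene of head mesenchyme that was at 612, 570.2 and 578 in wild-type and 315 to 499.6 in the knockouts (limma, log2 fold change -0.60 with SE 0.10, adjusted p = 0.00459), and of Ceacam2, a cell adhesion gene (-2.93, limma adjusted p = 7.6e-05).

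Some large folds came from genes that were at or near 0 in some knockout embryos. Cyct, the testis form of cytochrome c, was at 91.4, 77.2 and 117 in wild-type, at 0.976 to 58.6 (median 26.9) in NEO-IN and at 0 to 5.33 (median 0) in NEO-OUT, where most embryos were at 0. It fell (limma adjusted p = 0.0139), but without wild-type embryo 1, 2 or 3 its limma adjusted p was 0.0733, 0.0629 and 0.0809. Xist, the RNA that coats the inactive X chromosome, was at 5566, 5939.6 and 7588 in wild-type and at 0 to 5447 in the knockouts, with the 5 libraries that held Y-linked reads near 0. The other 7 knockouts ran up to the edge of the wild-type range, and Xist was not called (limma, log2 fold change -5.09 with SE 2.89, adjusted p = 0.367). No wild-type library held Y-linked reads above 2.1 normalized counts, so that embryo sex differs between the groups. With the Y-linked level in the model 139 of the 483 separated genes were called, in place of 212.

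Transcripts of the mitochondrial genome made the densest block of separated genes: 10 of the 14 tested on that chromosome (71.4%) lay below the wild-type range, against 1.81% to 3.81% of genes separated in either direction on the autosomes and X. Of 37 mitochondrially encoded genes listed, only these 14 reached the mean of 10, and 5 were at 0 in every library. Untested for that reason were, among others, mt-Co2, mt-Co3 and mt-Atp6, so the counts do not cover the whole mitochondrial genome. The tested members had a median log2 fold change of -0.97 with 13 of 14 negative. Of them 11 were called lower, where 1.11% of all genes were. As counted here, mitochondrial RNA made up 0.789% to 1.12% of normalized counts in wild-type, 0.302% to 0.501% in NEO-IN and 0.393% to 0.602% in NEO-OUT. In RNA from whole embryos, fewer mitochondria-rich cells and less mitochondrial RNA per cell cannot be told apart.

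Both mitochondrial ribosomal RNA genes were separated. mt-Rnr1, the small ribosomal RNA, was at 9967, 12212 and 10475 in wild-type, 4241 to 6745 (median 5421) in NEO-IN and 4836 to 7285 (median 5628) in NEO-OUT, and fell 1.96-fold (limma, log2 fold change -0.97 with SE 0.14, adjusted p = 0.00101). mt-Rnr2, the large ribosomal RNA, was at 10875, 11769 and 11188 in wild-type and at 6595 to 9739.6 (median 8139.7) in the knockouts, and fell (limma, log2 fold change -0.49 with SE 0.11, adjusted p = 0.0215). Of these, mt-Rnr1 kept its call in each of the 15 fits; for mt-Rnr2, without wild-type embryo 1, 2 or 3 its limma adjusted p was 0.0804, 0.122 and 0.0877. Ribosomal RNA levels in libraries made from polyadenylated RNA depend on how much of it carries a tail, which was not measured.

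The complex I subunit genes mt-Nd1, mt-Nd5 and mt-Nd2 had the largest decreases among the tested members of the list. mt-Nd2 was at 63666, 76652 and 86416 in wild-type and 21008 to 49220.4 (median 37788) in the knockouts (limma, log2 fold change -1.06 with SE 0.17, adjusted p = 0.00255), and mt-Nd5 at 58400.2, 62962 and 84769 and 20701 to 42733 (median 33259) (limma, log2 fold change -1.09 with SE 0.16, adjusted p = 0.00142). NEO-IN 1 was the lowest library for mt-Nd2 and mt-Nd5, and no knockout reached a wild-type value. mt-Nd1 had a log2 fold change of -1.11, mt-Nd4 of -0.91, the complex III gene mt-Cytb of -0.98 and the cytochrome c oxidase gene mt-Co1 of -0.98, all called. In each of the 15 fits mt-Nd1, mt-Nd2, mt-Nd5, mt-Cytb and mt-Co1 were called, while mt-Nd4 lost its call without wild-type embryo 3 (limma adjusted p = 0.0541), the wild-type embryo with the highest mitochondrial level. The transfer RNA genes mt-Ti and mt-Tm were separated and called as well (-1.04 and -1.01); mt-Ti was not called when wild-type embryo 1 or 2 was left out (0.0836 and 0.127) and mt-Tm without wild-type embryo 2 or 3 (0.083 and 0.0749). mt-Tl1 was called without being separated (limma, log2 fold change -0.82 with SE 0.18, adjusted p = 0.0204); without wild-type embryo 2 or 3 its limma adjusted p was 0.0617 and 0.165.

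Tested members of the list without a call were mt-Nd6, mt-Tw and mt-Tt. mt-Nd6, the protein-coding gene on the opposite strand from the other subunits, was at 50.9, 117 and 89.4 in wild-type, 25.8 to 65.1 (median 38.8) in NEO-IN and 46.9 to 145 (median 76.2) in NEO-OUT, and was not called (limma, log2 fold change -0.52 with SE 0.36, adjusted p = 0.469). mt-Tw (-0.06) and mt-Tt (0.17) overlapped the wild-type range. The sign for mt-Tw turned to 0.12 without wild-type embryo 1 and to 0.03 with that trophoblast score in the model, and that for mt-Tt to -0.02 without wild-type embryo 1. With the trophoblast score in the model the median of the tested members was -1.04 and 8 were called. With the Y-linked level in the model their median was -0.90 and 9 were called.

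**Figure D2:**
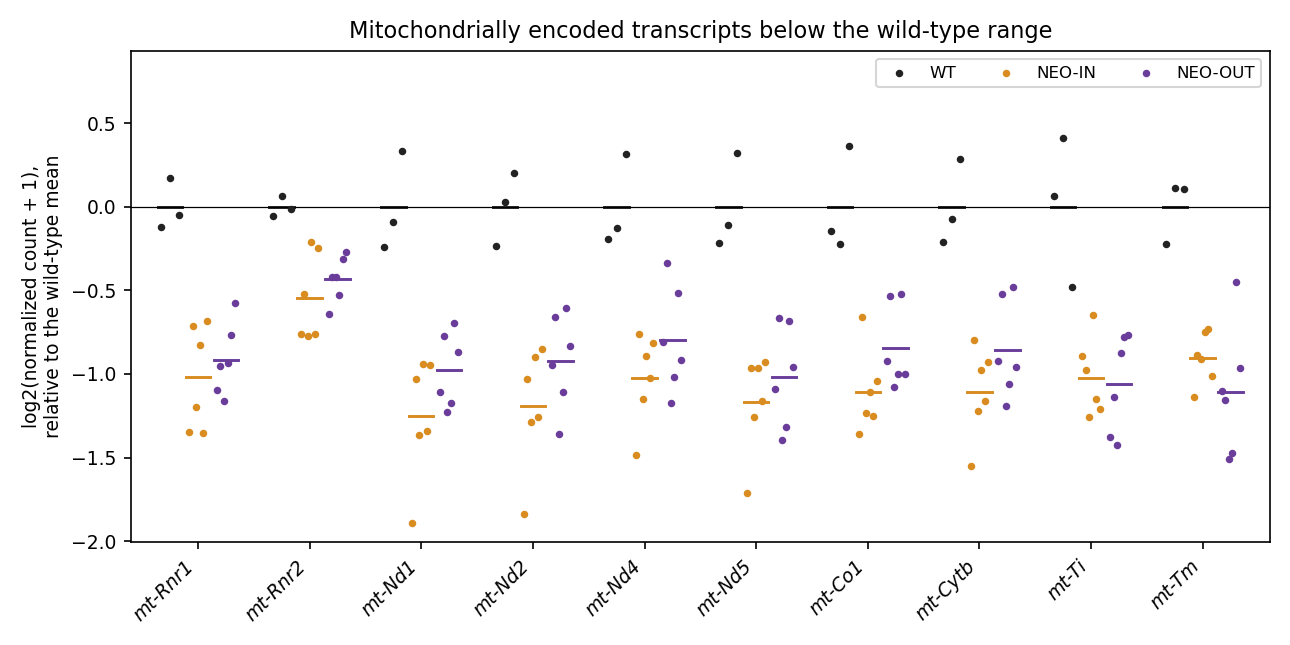
Log2(normalized count + 1) of 10 mitochondrially encoded transcripts relative to the wild-type mean, 1 point per library and a bar for the mean of each group (wild-type n = 3, NEO-IN n = 6, NEO-OUT n = 6). All knockout points lie under all wild-type points of the same gene; mt-Rnr2 dropped least.

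Over nuclear genes of the same organelle fold changes centred near 0. The median log2 fold change was 0.01 over 36 nuclear complex I subunits, 0.04 over 39 subunits of complexes II to V and 0.02 over 77 mitochondrial ribosomal proteins. None of the 36 and none of the 39 were called by limma, with 6 and 5 at an unadjusted p under 0.05; edgeR called 1 and 0, and DESeq2 1 and 1. Among the separated genes, a group of 32 nuclear genes for mitochondrial proteins was put together after the values were seen; it holds 14 higher and 18 lower genes, 13 of them called, and these counts depend on that choice.

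The higher members included chaperones and factors of mitochondrial RNA and translation. Wars2, the mitochondrial tryptophanyl-tRNA synthetase, was at 574, 605 and 801 in wild-type and 852 to 1216 (median 1057) in the knockouts, and rose (limma, log2 fold change 0.67 with SE 0.09, adjusted p = 0.000643). Atpaf2, an assembly factor of ATP synthase, was at 2067, 1750.2 and 1635 and 2298 to 2723 (median 2589.6) (limma, log2 fold change 0.50 with SE 0.06, adjusted p = 5.84e-05). Wild-type embryo 1 was the highest wild-type embryo for Atpaf2 and wild-type embryo 3 for Wars2, and both genes were called in each of the 15 fits. Mrm1 and Mrm3, methyltransferases of the large mitochondrial ribosomal RNA, were also higher (0.41 and 0.17); Mrm1 was called, but without wild-type embryo 1, 2 or 3 its limma adjusted p was 0.115, 0.121 and 0.148. Pdhb, a subunit of pyruvate dehydrogenase, rose slightly (limma, log2 fold change 0.15 with SE 0.04, adjusted p = 0.0283), but was not called when wild-type embryo 2 or 3 was left out (limma adjusted p = 0.156 and 0.163).

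The lower members included enzymes of amino and organic acid breakdown. D2hgdh, which oxidises D-2-hydroxyglutarate, was at 1136, 1026 and 1037 in wild-type, 629 to 734 (median 692) in NEO-IN and 857 to 1024 (median 986) in NEO-OUT, and fell (limma, log2 fold change -0.39 with SE 0.06, adjusted p = 0.00352). NEO-IN lay below NEO-OUT without overlap, and with the 12 knockouts taken as 1 group D2hgdh was not called (limma adjusted p = 0.238). Acsf2, an acyl-CoA synthetase, was at 675, 693 and 673 and 361 to 606 (median 489) (limma, log2 fold change -0.51 with SE 0.10, adjusted p = 0.00825), and lost its call in 1 of the 15 fits, without wild-type embryo 2 (0.0583). Mrps10, of the small mitochondrial ribosomal subunit, was at 1417, 1709.6 and 1361 and 918 to 1317 (median 1043) (limma, log2 fold change -0.51 with SE 0.09, adjusted p = 0.00459), and lost it without wild-type embryo 2 (0.0646). Abat, the GABA transaminase, fell too (limma, log2 fold change -0.47 with SE 0.11, adjusted p = 0.0243); without wild-type embryo 1, 2 or 3 its limma adjusted p was 0.164, 0.084 and 0.0659. Prodh, Aldh5a1, Mccc2 and Dhtkd1, enzymes of proline, succinate semialdehyde, leucine and lysine breakdown, lay below the wild-type range without a call (-0.20, -0.20, -0.12 and -0.88), as did the transhydrogenase gene Nnt (-0.25) and the complex I subunit gene Ndufv3 (-0.26).

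Some genes of protein folding in the endoplasmic reticulum and of the early secretory pathway lay above the wild-type range, by small amounts. The list of the unfolded protein response, like the other lists, was chosen with earlier results of these data known, so its direction is no independent evidence. It had 13 tested members, all with positive fold changes and a median of 0.18. Of these 7 rose, against 1.41% of all genes outside chromosome 8, and 3 were separated, Hspa5, Dnajc3 and Manf, while the other 10 overlapped the wild-type range. The other secretory genes described here were chosen after their values were seen, so that their shared direction is no result; Mgat3 and St6gal2, Golgi enzymes of glycan synthesis, were separated lower and called (-0.37 and -0.52, limma adjusted p = 0.039 and 0.0235), with the call kept in 10 and 12 of the 15 fits that leave out 1 library.

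The promoters of 4 higher chaperone genes are shown, picked because they hold a match to a sequence element named after a stress. The elements are the endoplasmic reticulum stress element (ERSE, searched as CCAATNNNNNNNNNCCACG), its variant ERSE-II (ATTGGNCCACG), and the heat shock element (GAANNTTCNNGAA or TTCNNGAANNTTC). Whether such a stress acted in these embryos was not tested. Both strands were searched in windows from 250 bases before to 50 after each RefSeq start (GRCm38.p6), and capitals mark the match. The windows are chr2:34771840-34772139 for Hspa5, chr14:118937682-118937981 for Dnajc3, chr16:22857595-22857894 for Dnajb11 and chr1:55087898-55088197 for Hspe1, all on the plus strand; in the last, overlapping heat shock element matches on both strands merge into 1 run of capitals.
Hspa5: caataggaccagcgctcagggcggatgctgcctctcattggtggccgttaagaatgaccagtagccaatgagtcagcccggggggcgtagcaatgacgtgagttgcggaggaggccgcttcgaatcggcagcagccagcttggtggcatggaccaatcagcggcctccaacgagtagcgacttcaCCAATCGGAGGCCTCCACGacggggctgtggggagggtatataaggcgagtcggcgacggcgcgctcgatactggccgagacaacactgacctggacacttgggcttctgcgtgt
Dnajc3: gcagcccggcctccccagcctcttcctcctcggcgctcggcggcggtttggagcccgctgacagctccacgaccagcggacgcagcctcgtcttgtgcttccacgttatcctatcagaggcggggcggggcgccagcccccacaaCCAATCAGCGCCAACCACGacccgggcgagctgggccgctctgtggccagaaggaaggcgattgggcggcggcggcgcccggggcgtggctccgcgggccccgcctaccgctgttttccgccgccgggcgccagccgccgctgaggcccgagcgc
Dnajb11: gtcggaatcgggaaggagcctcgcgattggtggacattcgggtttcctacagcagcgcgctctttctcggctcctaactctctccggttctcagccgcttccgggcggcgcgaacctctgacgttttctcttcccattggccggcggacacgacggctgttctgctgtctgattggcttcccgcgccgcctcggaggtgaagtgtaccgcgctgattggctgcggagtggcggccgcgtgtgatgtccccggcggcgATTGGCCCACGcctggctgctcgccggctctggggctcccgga
Hspe1: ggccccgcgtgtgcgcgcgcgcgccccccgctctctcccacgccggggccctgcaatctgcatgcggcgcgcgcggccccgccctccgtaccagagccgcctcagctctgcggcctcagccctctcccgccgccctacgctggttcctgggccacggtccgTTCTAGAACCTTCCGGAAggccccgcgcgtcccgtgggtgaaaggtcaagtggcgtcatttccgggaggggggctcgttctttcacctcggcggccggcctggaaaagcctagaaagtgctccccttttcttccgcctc

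The ERSE was found in 39 of 32851 promoters (0.119%). By gene, it was in a promoter of 3 of the 191 separated higher genes with a matched promoter (1.57%). These were Hspa5, Dnajc3 and the X-linked Xlr3a, which belongs to a family of close copies. The first share counts promoter windows of all genes and the second counts genes, so they are not the same measure. None of the 148 matched lower genes held the ERSE, but so rare an element would seldom be found among so few genes. That count therefore cannot set the directions apart. On the unfolded protein response list the ERSE was in promoters of 6 of 11 matched genes, Canx, Creld2, Dnajc3, Hsp90b1, Hspa5 and Pdia6. ERSE-II was found in 12 promoters (0.0365%), including that of Dnajb11, where it lies after the start. The heat shock element was found in 198 promoters (0.603%), among them those of the separated higher genes Hspd1, Hspe1 and Pus7. A match of letters describes the window and was not tested as a binding site.

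Hspa5 (ENSMUSG00000026864.10, chromosome 2 from 34771970 to 34777547), the Hsp70 chaperone BiP, was at 73060.0, 72643 and 69540.3 normalized counts in wild-type, 76199 to 84767 (median 77345) in NEO-IN and 81992 to 102258 (median 91671) in NEO-OUT. NEO-IN sat just above wild-type apart from NEO-IN 1, which was higher than NEO-OUT 12 and lower than the other NEO-OUT embryos. Hspa5 rose 1.18-fold (limma, log2 fold change 0.24 with SE 0.05, adjusted p = 0.0169). Dnajc3, a co-chaperone that holds back the eIF2 kinases, was at 7955, 7619 and 8158 in wild-type, 8429 to 9468 (median 8729.9) in NEO-IN and 9602 to 10952 (median 10189) in NEO-OUT, with no overlap between the strains. It rose 1.21-fold (limma, log2 fold change 0.27 with SE 0.04, adjusted p = 0.00224) and kept its call in each of the 15 fits, but not with the 12 knockouts taken as 1 group (limma adjusted p = 0.0875). Manf, a secreted factor of the stressed endoplasmic reticulum, was at 10635, 10266 and 10486, 10732 to 11625 (median 11049) and 12189.5 to 13733 (median 12824) in the same order (limma, log2 fold change 0.19 with SE 0.04, adjusted p = 0.00877). For Hspa5, without wild-type embryo 1, 2 or 3 its limma adjusted p was 0.0655, 0.0724 and 0.105; Manf lost its call without wild-type embryo 2 (0.0743).

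Dnajb11, a co-chaperone of BiP, was at 8211, 9009 and 8997 in wild-type and at 9038 to 10463 (median 9706) in the knockouts, just clear of the wild-type range, and rose (limma, log2 fold change 0.17 with SE 0.04, adjusted p = 0.0307); without wild-type embryo 1, 2 or 3 its limma adjusted p was 0.216, 0.0743 and 0.068. Lman2l and Mcfd2, which help cargo leave the endoplasmic reticulum, rose by 0.25 and 0.25 on the log2 scale (limma adjusted p = 0.00459 and 0.018), as did Mgat2, a Golgi enzyme of N-glycan branching (0.16, 0.0323), and Ero1lb, an oxidase of disulfide bonds (0.37, 0.0487). Lman2l lost its call without wild-type embryo 3 (0.0534), Mcfd2 and Mgat2 without each wild-type embryo in turn (0.0655, 0.103 and 0.0832 for Mcfd2, and 0.198, 0.0515 and 0.137 for Mgat2), and for Ero1lb, the call held in 2 of 15 fits that each left out 1 library, with a limma adjusted p of 0.147, 0.21 and 0.144 without wild-type embryo 1, 2 or 3. Serp1, Selenos, Mlec, Kdelr2, Sec23b, Uso1 and Tm9sf3 were higher without a call, at log2 fold changes of 0.08 to 0.14. Kdelr1, which like Kdelr2 returns escaped chaperones to the endoplasmic reticulum, was lower (limma, log2 fold change -0.10 with SE 0.04, adjusted p = 0.164).

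Members of the unfolded protein response list that rose while overlapping the wild-type range were Xbp1, a transcription factor of the response (limma, log2 fold change 0.18 with SE 0.04, adjusted p = 0.0413), and Sdf2l1, Hyou1 and Pdia4, which act in folding (0.28, 0.21 and 0.16). All of the knockout values below the highest wild-type value in Sdf2l1 belonged to NEO-IN. These calls held in 4, 5, 3 and 2 of the 15 fits, and without wild-type embryo 1, 2 or 3 the limma adjusted p was 0.0158, 0.196 and 0.253 for Xbp1, 0.0953, 0.195 and 0.173 for Sdf2l1, 0.101, 0.193 and 0.176 for Hyou1 and 0.133, 0.134 and 0.23 for Pdia4. The list counted 3, 1 and 2 called members without wild-type embryo 1, 2 and 3, and 1 with that trophoblast score in the model, while its median stayed between 0.13 and 0.21. With the 12 knockouts taken as 1 group limma called none, with 11 at an unadjusted p under 0.05; with 3 groups edgeR called 7 and DESeq2 9. The integrated stress response list, which shares a branch with this response, had 22 tested members with a median of 0.05 and 1 called, Phgdh.

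**Figure D3:**
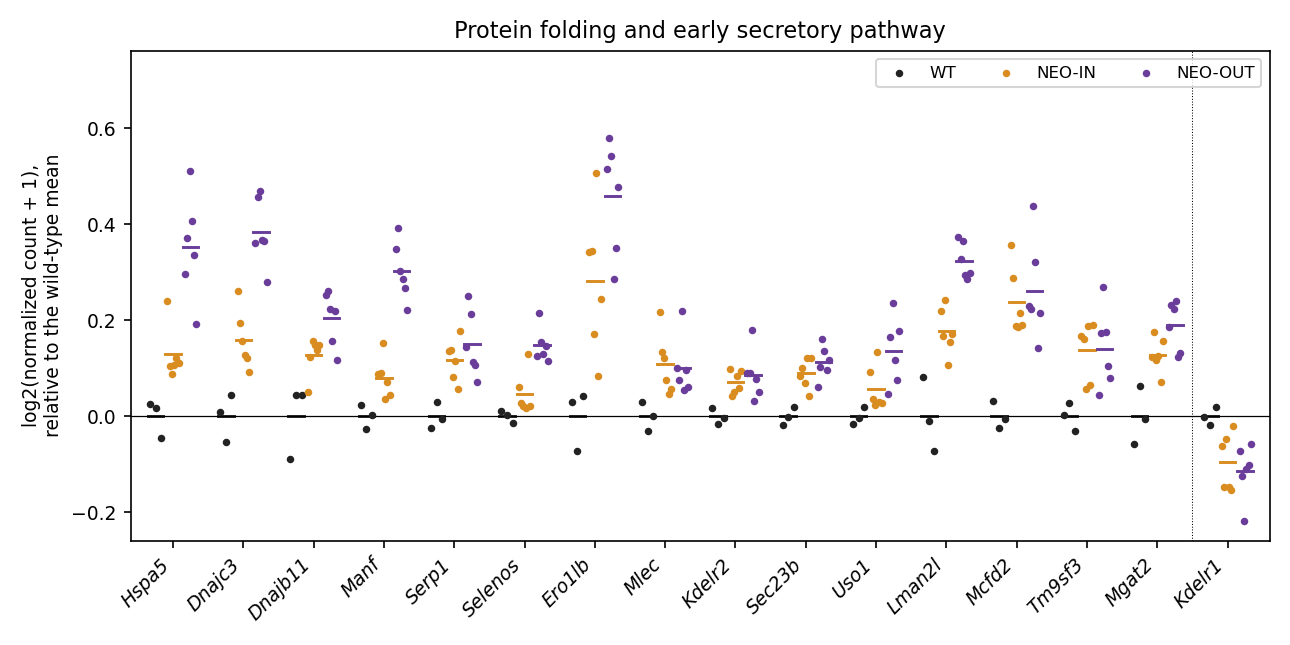
Log2(normalized count + 1) of 16 separated genes of protein folding and the early secretory pathway, chosen after their values were seen, relative to the wild-type mean, 1 point per library and a bar for each group mean (wild-type n = 3, NEO-IN n = 6, NEO-OUT n = 6). The 15 genes left of the dotted line lie above wild-type, with the NEO-OUT mean above the NEO-IN mean for Hspa5, Dnajc3, Manf and Lman2l; Kdelr1 lies below.

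Hspd1 and Hspe1, which encode the mitochondrial chaperonin and its lid and are read head to head from a shared promoter, both lay above wild-type. Hspe1 was at 11886, 14229 and 14105 in wild-type, 17812 to 18813 (median 17997) in NEO-IN and 14827 to 19585 (median 15466) in NEO-OUT, and rose (limma, log2 fold change 0.36 with SE 0.07, adjusted p = 0.00952), losing its call without wild-type embryo 1 (0.105). Hspd1 was at 72113, 73755 and 70949.6 and 74109 to 91462 (median 77923), a narrow gap, and was not called (limma, log2 fold change 0.14 with SE 0.05, adjusted p = 0.137). Of the 14 heat shock and chaperone genes tested 12 had positive fold changes, with a median of 0.14, and the other called member was Hsph1, a nucleotide exchange factor of cytosolic Hsp70 (limma, log2 fold change 0.29 with SE 0.05, adjusted p = 0.00821). Hsph1 overlapped the wild-type range through NEO-IN, and without wild-type embryo 1 its limma adjusted p was 0.0731. With that trophoblast score in the model limma called none of the list, with 7 at an unadjusted p under 0.05; without it edgeR called 2 and DESeq2 5.

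Separated genes of membrane lipids were also grouped after the values were seen. Of 4 that make or remodel glycosylphosphatidylinositol (GPI) anchors, 3 rose and Pigq lay lower without a call (-0.10). Mppe1, an anchor-remodelling gene left out of that group, was also separated lower without a call (-0.33, limma adjusted p = 0.131). Pign, which adds ethanolamine phosphate to the anchor, was at 2139.7, 1319 and 1253 in wild-type, 2418 to 3312 (median 2961) in NEO-IN and 2668 to 3292 (median 2863) in NEO-OUT. The strains overlapped fully, and wild-type embryo 1 was the high wild-type value. Pign rose 1.88-fold (limma, log2 fold change 0.91 with SE 0.12, adjusted p = 0.000511). Pigm, the mannosyltransferase of the same pathway, was at 2227, 2459 and 2208 in wild-type, 2539 to 2772 (median 2615) in NEO-IN and 3763 to 4592 (median 4014) in NEO-OUT, with NEO-IN barely above wild-type and NEO-OUT far above both. It rose 1.42-fold (limma, log2 fold change 0.50 with SE 0.05, adjusted p = 3.37e-05), and Pgap1, which removes an acyl chain from the anchor, by 0.26 on the log2 scale (limma adjusted p = 0.0304). Pign and Pigm kept their calls in each of the 15 fits, but with the 12 knockouts taken as 1 group Pigm was not called (limma adjusted p = 0.187); for Pgap1, without wild-type embryo 1, 2 or 3 its limma adjusted p was 0.106, 0.116 and 0.149.

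For ceramide, the serine palmitoyltransferase subunit gene Sptlc2 and its brakes Ormdl1 and Ormdl3 were all higher and not called (0.15, 0.25 and 0.15). For sterols, Hmgcs1, the synthase that supplies HMG-CoA, was at 8509.9, 9339 and 6149 in wild-type and 5068 to 6115 (median 5779) in the knockouts, and fell (limma, log2 fold change -0.46 with SE 0.09, adjusted p = 0.0073). Wild-type embryo 3 lay close to the knockouts, and the limma adjusted p was 0.0749 and 0.0879 without wild-type embryo 1 and 2. Stard4, a cytosolic cholesterol carrier, was at 3787, 3920.1 and 4020.4 and 4068 to 6115 (median 5071) (limma, log2 fold change 0.35 with SE 0.08, adjusted p = 0.0252); without wild-type embryo 1, 2 or 3 its limma adjusted p was 0.13, 0.108 and 0.0811. The cholesterol list as a whole, 22 genes, had a median of 0.02 with 1 member called in each direction.

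Genes of glucose and serine metabolism were separated on both sides. Phgdh, the enzyme that starts serine synthesis from a glycolytic intermediate, was at 9645, 9103 and 11851 in wild-type and 13200.0 to 16182 (median 15005) in the knockouts. It rose 1.45-fold (limma, log2 fold change 0.54 with SE 0.07, adjusted p = 0.000343) and kept its call in each of the 15 fits. Slc2a3, the high-affinity glucose transporter, was at 241321, 239052 and 229239 in wild-type and at 245446 to 281546 (median 260945) in the knockouts and rose (limma, log2 fold change 0.16 with SE 0.04, adjusted p = 0.031), while Hk2, the hexokinase, was at 12208, 10842 and 10487 and 8749.6 to 10146 (median 9790.2) and fell (limma, log2 fold change -0.20 with SE 0.05, adjusted p = 0.0367). For Slc2a3, without wild-type embryo 1, 2 or 3 its limma adjusted p was 0.0973, 0.109 and 0.178; for Hk2, the call held in 11 of 15 fits that each left out 1 library, with a limma adjusted p of 0.248, 0.102 and 0.0444 without wild-type embryo 1, 2 or 3. Glycolysis genes had 16 of 19 negative fold changes and a median of -0.08. Of 14 hypoxia targets, Kdm3a, a histone demethylase, was lower and called (limma, log2 fold change -0.25 with SE 0.05, adjusted p = 0.0213), not called when wild-type embryo 1 or 2 was left out (0.13 and 0.139), and Vegfa, the endothelial growth factor gene, was lower without a call (limma, log2 fold change -0.15 with SE 0.05, adjusted p = 0.132).

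Targets of p53, the transcription factor of DNA damage and nutrient stress, had positive fold changes in 23 of 26 tested members, with a median of 0.13, and 4 rose: Phlda3 and Zmat3, which were separated, and Eda2r and Tigar, which were not. This list had been seen to move in earlier results of these data, so its direction is no independent evidence. Phlda3, a repressor of Akt, was at 798, 799.9 and 700.5 in wild-type, 839 to 1028 (median 912) in NEO-IN and 958 to 1454 (median 1246) in NEO-OUT. NEO-OUT lay mostly above NEO-IN. It rose (limma, log2 fold change 0.46 with SE 0.10, adjusted p = 0.0233), but without wild-type embryo 1, 2 or 3 its limma adjusted p was 0.0805, 0.0786 and 0.149. Zmat3, an RNA-binding splicing factor, was at 2209, 2204 and 2285 in wild-type and at 2463 to 3006 (median 2607) in the knockouts, with the strains overlapping. It rose too (limma, log2 fold change 0.25 with SE 0.05, adjusted p = 0.0184), but without wild-type embryo 1, 2 or 3 its limma adjusted p was 0.1, 0.102 and 0.0581. Eda2r, a receptor of ectodysplasin A2, rose (limma, log2 fold change 0.84 with SE 0.15, adjusted p = 0.0067), but without wild-type embryo 1 its limma adjusted p was 0.0617. Tigar, a fructose bisphosphatase that slows glycolysis, rose (limma, log2 fold change 0.20 with SE 0.05, adjusted p = 0.0303), with its highest values in NEO-IN; without wild-type embryo 1, 2 or 3 its limma adjusted p was 0.18, 0.107 and 0.0709. Limma called no p53 target with that trophoblast score in the model (9 at an unadjusted p under 0.05) or without wild-type embryo 1 (8); with all libraries and no score edgeR called 4 and DESeq2 6.

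Among separated genes of DNA repair and replication, Ercc6l2, a helicase-like factor of DNA end joining, was at 2289, 2444 and 2331 in wild-type and 2922 to 3677 (median 3216) in the knockouts, with the strains overlapping, and rose (limma, log2 fold change 0.44 with SE 0.05, adjusted p = 0.000228) in each of the 15 fits. Rad52, which acts in the repair of DNA breaks, was higher without a call (0.19). Pole, the leading-strand polymerase, was lower (limma, log2 fold change -0.21 with SE 0.04, adjusted p = 0.0185), no longer called in fits that left out wild-type embryo 1 or 3 (0.111 and 0.105), as was Trp53bp1 without a call (-0.10). Over 32 DNA repair genes the median was 0.01 and over 33 DNA replication genes it was -0.01.

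Separated genes of the matrix and of receptor signalling lay on both sides, and the lower ones described here were chosen after their values were seen. Higher were the matrix gene Vwa1 (0.77, limma adjusted p = 0.0265) and Socs5, a brake of cytokine signalling (0.26, limma adjusted p = 0.0171), both called in 12 of those 15 fits, and without a call the syndecan gene Sdc4 (0.18), the kinase gene Jak2 (0.20) and the thromboxane receptor gene Tbxa2r (0.51). Fn1, which encodes fibronectin, was at 65656, 67757 and 71390.2 in wild-type, 55009 to 63381 (median 58178) in NEO-IN and 53986 to 61649 (median 56109.9) in NEO-OUT. The strains overlapped, and Fn1 fell 1.18-fold (limma, log2 fold change -0.24 with SE 0.04, adjusted p = 0.00679), losing its call without wild-type embryo 3 (0.068). Tnc, which encodes the matrix protein tenascin C, was at 368, 281 and 315 in wild-type, 157 to 279 (median 222) in NEO-IN and 132 to 199.7 (median 157) in NEO-OUT, mostly lower in NEO-OUT, and fell 1.73-fold (limma, log2 fold change -0.79 with SE 0.16, adjusted p = 0.0139). Its call was lost when wild-type embryo 1 or 3 was left out (0.111 and 0.0637). Over the 21 tested genes of matrix and integrins 13 fold changes were positive and the median was 0.03.

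Snai1, the repressor of E-cadherin that cells of the streak switch on, was at 1798, 1924 and 2129 in wild-type, 1119 to 1649 (median 1471) in NEO-IN and 973 to 1786 (median 1664) in NEO-OUT. Its highest knockout came within 1.01-fold of the lowest wild-type embryo, and it was not called (limma, log2 fold change -0.40 with SE 0.14, adjusted p = 0.143). Its relative Snai2 was at 599, 527 and 533 and 288 to 498 (median 443) (limma, log2 fold change -0.40 with SE 0.13, adjusted p = 0.106), likewise without a call. The receptor gene Tgfbr3 and the heparan sulfate enzyme gene Hs3st3b1 fell, with log2 fold changes of -0.23 and -0.41 and limma adjusted p of 0.0494 and 0.044. For Tgfbr3, the call held in 3 of 15 fits that each left out 1 library, with a limma adjusted p of 0.222, 0.219 and 0.0676 without wild-type embryo 1, 2 or 3. For Hs3st3b1, the call held in 7 of 15 fits that each left out 1 library, with a limma adjusted p of 0.122, 0.173 and 0.176 without wild-type embryo 1, 2 or 3. Tgfbi, Mfap4 and P3h4 were lower without a call (-0.50, -0.62 and -0.24).

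In the Notch pathway, the receptor gene Notch1 was at 4443, 3914 and 4066 in wild-type, 3097 to 3755 (median 3594) in NEO-IN and 2594 to 3732 (median 3097) in NEO-OUT, below the wild-type range and just short of a call (limma, log2 fold change -0.31 with SE 0.08, adjusted p = 0.0557). Its feedback target Nrarp was lower too (limma, log2 fold change -0.27 with SE 0.12, adjusted p = 0.228), with the highest knockout at the edge of wild-type. Notch3 was called without being separated (limma, log2 fold change -0.28 with SE 0.07, adjusted p = 0.0364), and the call held in 11 of 15 fits that each left out 1 library, with a limma adjusted p of 0.229, 0.0724 and 0.104 without wild-type embryo 1, 2 or 3. Of 16 pathway genes 12 had negative fold changes, with a median of -0.16.

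Among the genes that FGF signals switch on as their own brakes, Dusp6, a phosphatase of ERK, was at 5202, 5025 and 5117 in wild-type and 3196 to 4897 (median 4378) in the knockouts, and Spry1 at 1497, 1413 and 1421 and 1030.2 to 1375 (median 1202). NEO-OUT 10 was the lowest embryo for Dusp6. Neither was called (limma, log2 fold change -0.28 with SE 0.10, adjusted p = 0.136 for Dusp6, and limma, log2 fold change -0.25 with SE 0.07, adjusted p = 0.0638 for Spry1). The ERK1 kinase gene Mapk3 and the ephrin gene Efna2 fell, with log2 fold changes of -0.22 and -0.47 and limma adjusted p of 0.0494 and 0.03. For Efna2, without wild-type embryo 1, 2 or 3 its limma adjusted p was 0.0902, 0.134 and 0.147. For Mapk3, the call held in 3 of 15 fits that each left out 1 library, with a limma adjusted p of 0.222, 0.144 and 0.147 without wild-type embryo 1, 2 or 3. Gli2, a transcription factor of the Hedgehog pathway, was at 2423, 2395 and 2478 in wild-type, 1908 to 2272 (median 2129) in NEO-IN and 1340.3 to 1994 (median 1902) in NEO-OUT, not called (limma, log2 fold change -0.34 with SE 0.10, adjusted p = 0.0727).

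Hoxb1 and Hoxb2, neighbours on chromosome 11 that are switched on as the posterior axis forms, were the separated Hox genes of 31 tested. Hoxb2 was at 1393, 1263 and 1402 in wild-type and 709.6 to 1170.2 (median 1084) in the knockouts and Hoxb1 at 4417, 4171 and 4119 and 1744 to 3919 (median 3396). NEO-OUT 10 was far below the other embryos for Hoxb1. Neither gene was called (0.0743 for Hoxb2 and 0.145 for Hoxb1, limma adjusted p). Gata5, a factor of heart and endoderm precursors, was at 620.4, 631 and 662 and 243 to 601 (median 487), with NEO-OUT 10 lowest, and was not called either (limma, log2 fold change -0.43 with SE 0.19, adjusted p = 0.231). The median log2 fold change was -0.13 over 22 streak and nascent mesoderm genes, -0.15 over 19 cardiac mesoderm genes and -0.28 over 14 paraxial genes, and limma called none of these genes. At an unadjusted p under 0.05 were 2 genes of each list; edgeR called none, and DESeq2 called 1, on the paraxial list. Over 15 epiblast and 14 anterior neuroectoderm genes it was -0.12 and -0.20, with 1 gene called lower on each list and none separated.

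**Figure D4:**
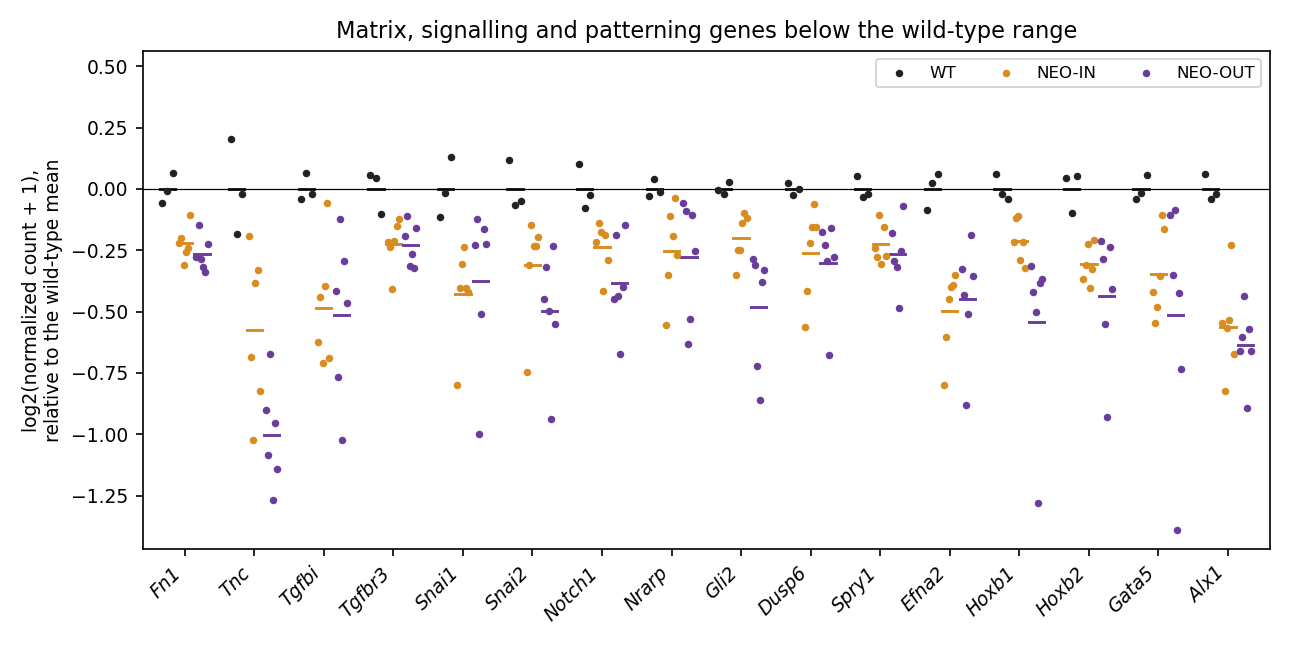
Log2(normalized count + 1) of 16 lower matrix, signalling and patterning genes, chosen after their values were seen, relative to the wild-type mean, 1 point per library and a bar for each group mean (wild-type n = 3, NEO-IN n = 6, NEO-OUT n = 6). All knockout points lie under all wild-type points of the same gene.

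Chromatin regulators were separated on both sides, and those described were chosen after their values were seen. A group of 15 put together in that way holds 3 higher and 12 lower genes, with 4 called, all lower. These counts depend on that choice. Ep300, a histone acetyltransferase, was at 9508, 9605 and 10139 in wild-type and 8094 to 9201 (median 8726) in the knockouts (limma, log2 fold change -0.17 with SE 0.04, adjusted p = 0.039), and the call held in 8 of 15 fits that each left out 1 library, with a limma adjusted p of 0.102, 0.122 and 0.214 without wild-type embryo 1, 2 or 3. Gatad2b, a subunit of the NuRD complex, fell similarly (limma, log2 fold change -0.19 with SE 0.04, adjusted p = 0.0257); without wild-type embryo 1, 2 or 3 its limma adjusted p was 0.0779, 0.105 and 0.154. Bicral, of the SWI/SNF family, fell too (limma, log2 fold change -0.24 with SE 0.06, adjusted p = 0.0365); the call held in 9 of 15 fits that each left out 1 library, with a limma adjusted p of 0.131, 0.224 and 0.0588 without wild-type embryo 1, 2 or 3. Smarca4, the ATPase of the same complexes, and Carm1, an arginine methyltransferase, are neighbours on chromosome 9 and were lower without a call (-0.13 and -0.17). Eed, Nsd2 and Hat1 were higher without a call (0.09, 0.13 and 0.16), as were Rnf20, Riox1 and Phf13 from outside that group (0.14, 0.14 and 0.23).

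Ribosomal protein genes were separated in both directions, with Rpl30 at 19094, 19979.8 and 19747 in wild-type and 9751 to 15625 (median 14240.0) in the knockouts. Rpl30 fell (limma, log2 fold change -0.57 with SE 0.13, adjusted p = 0.0227), as did Rps16 (limma, log2 fold change -0.21 with SE 0.04, adjusted p = 0.0151), while Rpl13a and Rps9 were higher without a call (0.15 and 0.14). For Rpl30, without wild-type embryo 1, 2 or 3 its limma adjusted p was 0.0917, 0.109 and 0.0997; for Rps16, without wild-type embryo 1, 2 or 3 its limma adjusted p was 0.102, 0.0657 and 0.0581. These genes have many processed pseudogene copies that can share their reads. Over 79 of them the median was 0.02, and limma called 2 higher and 3 lower. The 2 called higher overlapped the wild-type range. Psmb5, the chymotrypsin-like subunit of the proteasome, rose (limma, log2 fold change 0.29 with SE 0.07, adjusted p = 0.0299), the separated member of 36; without wild-type embryo 1, 2 or 3 its limma adjusted p was 0.0811, 0.104 and 0.176.

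**Figure D5:**
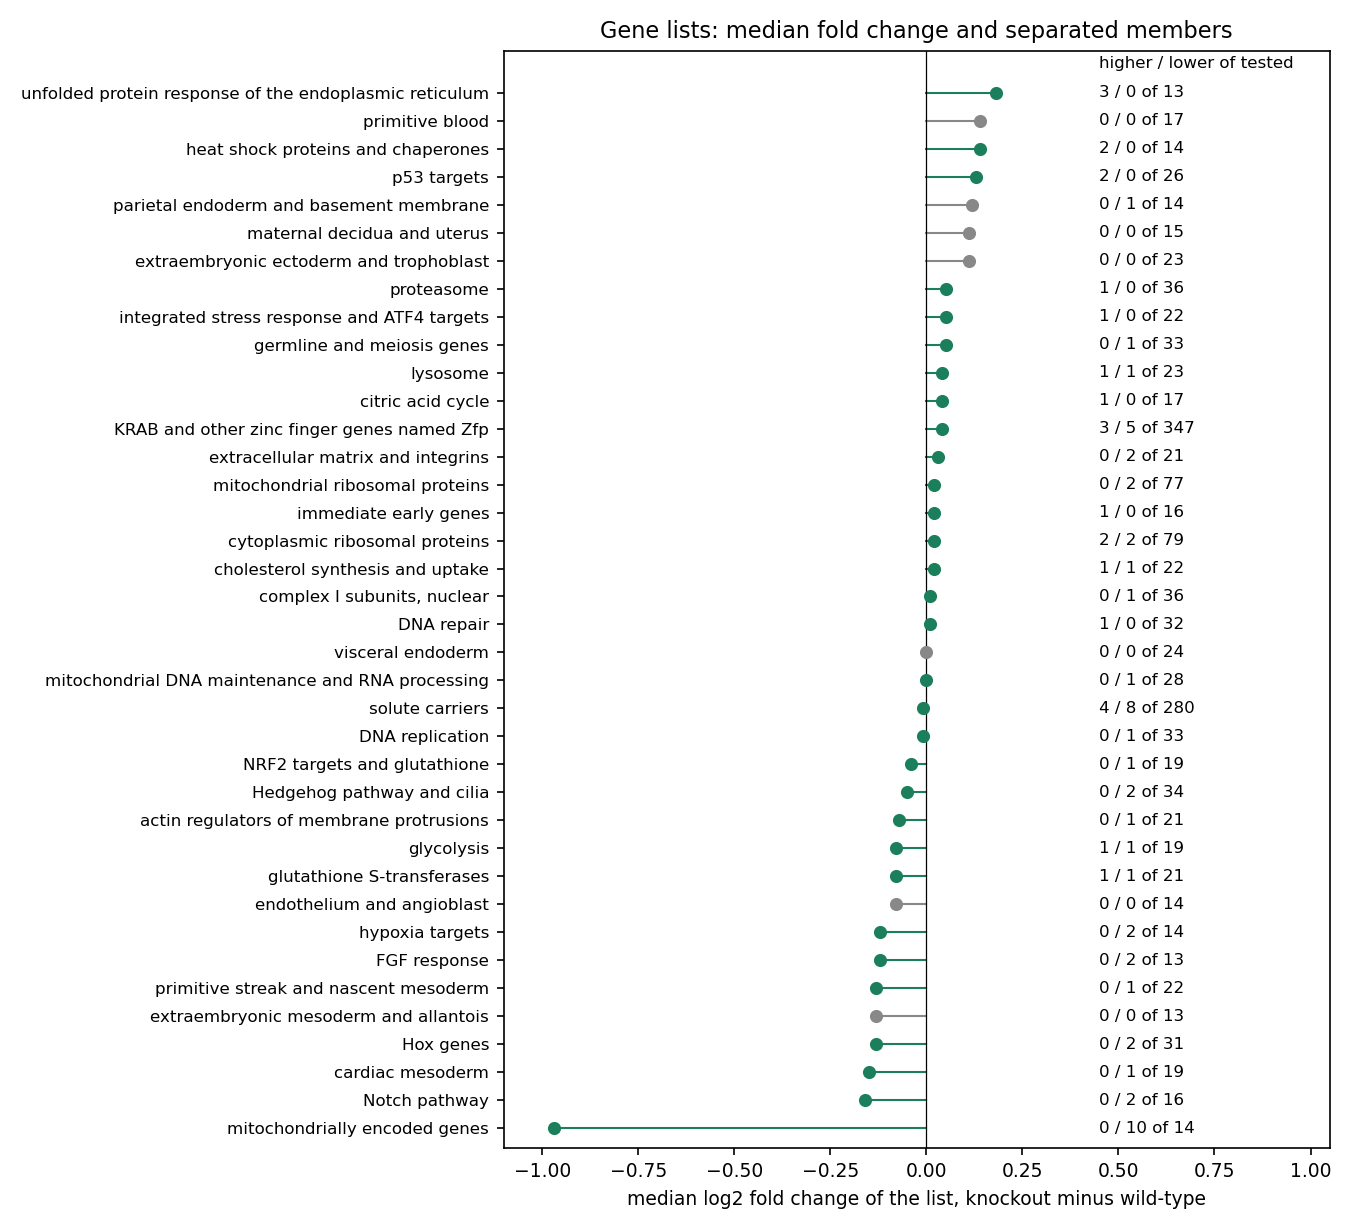
Median log2 fold change of knockout over wild-type (horizontal axis) for gene lists with at least 10 tested genes that hold a separated member (green), or that mark other cell types (grey), with the number of separated higher and lower members of those tested at the right. The mitochondrially encoded genes stand apart at -0.97; the other lists shown lie between -0.16 and 0.18.

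The lists of other cell types held 1 separated gene, Snai1, which the parietal endoderm list shares with the streak list. The median was 0.11 over 23 trophoblast genes, 0.14 over 17 primitive blood genes, -0.00 over 24 visceral endoderm genes and -0.08 over 14 endothelial genes. Their part in the separated genes was not tested beyond the trophoblast score. With that score in the model 57 of the 483 separated genes were called, 28 higher and 29 lower, while the median log2 fold change of the separated genes stayed at 0.22 for the higher and went from -0.38 to -0.36 for the lower ones. Among the genes described, Lncenc1, Rsad1, Pid1, Pign, Baiap2l1, Ulk4, Fn1 and Dnajc3 were still called with it, and Hspa5 (0.0864), Manf (0.101), Tnc (0.201) and Alx1 (0.123) were not, as limma adjusted p. With a random block for each 3 consecutive embryos, chosen after seeing the data, 102 of the separated genes were called.

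Of the 473 separated genes on nuclear chromosomes, 240 had another within 1 Mb, in 90 clusters, 35 of which held 3 or more. On chromosome 1, Pgap1, Coq10b, Hspd1 and Hspe1 were 4 of 6 tested genes in 0.62 Mb, all higher. On chromosome 3, Pde4dip, Phgdh, Zfp697 and Wars2 were 4 of 9 in 1.55 Mb, all higher. On chromosome 16, Myh11, Abcc1 and Snai2 were 3 of 4 in 0.51 Mb, all lower. Gata5, Chrna4, Eef1a2, Helz2 and Tcea2 at the end of chromosome 2 were 5 of 36, all lower. On chromosome 13, Nnt, Tmem267 and Hmgcs1 were 3 of 7 in 0.37 Mb, all lower. Some other clusters also shared a direction, and in others the directions were mixed. Carm1, Smarca4 and their neighbours on chromosome 9 were mixed, with 2 higher and 4 lower of 31 tested. How often genes cluster so without a shared cause was not tested, and linked differences between the mixed backgrounds of the embryos cannot be told apart from effects of the knockout.

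The strains differed at some separated genes although both lay on the same side of wild-type. NEO-IN versus NEO-OUT, which does not use the wild-type levels, called 13.4% of all genes outside chromosome 8 and 39 of the 483 separated genes (8.07%), a share that the rule itself limits. As a log2 difference, NEO-IN minus NEO-OUT, Cyct stood at 3.54 (limma adjusted p = 0.004), with most NEO-OUT embryos at 0, and Pigm at -0.62 (limma adjusted p = 1.99e-07). Hspa5, Dnajc3 and Manf were lower in NEO-IN, at -0.22 (limma adjusted p = 0.000317) for Manf, -0.22 (limma adjusted p = 0.0011) for Dnajc3 and -0.22 (limma adjusted p = 0.00356) for Hspa5, while Hspe1 had the higher median in NEO-IN, with a difference of 0.17 (limma adjusted p = 0.0794). Phlda3 differed by -0.40 (limma adjusted p = 0.00873), Acsf2 by 0.37 (limma adjusted p = 0.00953), Lman2l by -0.15 (limma adjusted p = 0.0203) and Selenos by -0.10 (limma adjusted p = 0.0426). For D2hgdh, a lower gene, the difference of -0.51 (limma adjusted p = 2.78e-05) put NEO-IN farther from wild-type, as did that of -0.30 (limma adjusted p = 2.57e-05) for Snap47, a SNARE protein gene that fell (limma, log2 fold change -0.27 with SE 0.04, adjusted p = 0.0007) in each of the 15 fits. With the 12 knockouts taken as 1 group, where the distance between the strains counts as spread, Pigm, Snap47, D2hgdh and Dnajc3 were not called against wild-type (limma adjusted p = 0.187, 0.156, 0.238 and 0.0875). Lncenc1, Rsad1, Pign, Baiap2l1, Fn1 and the mitochondrial transcripts that were separated were not called between the strains, which does not show that they were equal.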

How the data were processed

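Each library was prepared from the RNA of 1 embryo with TruSeq Stranded mRNA reagents, per the labels' protocols. Tools listed without roles in the submitters' processing notes are featureCounts, STAR, kallisto, Picard and DESeq2, with the build mm10. The deposited values are a signal: reads per gene over a library size factor, here called normalized counts. Division by each library's step gave whole reads for 100% of values within 0.01; size factors ran from 0.8495 to 1.0735. Between 76.9% and 79.1% of recovered counts from 1 to 20 were even, so that read pairs may have been counted as 2. GENCODE annotation of GRCm38 named 98.6% of 45232 identifiers. A stray letter in 1 cell was left out.

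The test was limma with a mean trend (version 3.58.1, under R 4.3.3), applied to log2(normalized count + 1) for 16430 genes with a mean of at least 10, which understates the change of low genes. The 3 groups shared 1 fit, and Benjamini-Hochberg adjustment ran over all genes. The test was also run on simulated counts that held no strain, litter or sex differences, so that run cannot show how it behaves where these are present. Alternatives changed pseudocount, filter, scaling, grouping, covariates and libraries, and recovered reads were also tested in DESeq2 1.42.0 and in edgeR 4.0.16. Named genes were the 15 largest changes and 6 widest gaps in each direction (mean of at least 50, no gene model name), up to 4 separated members of each of 61 lists, neighbours within 1 Mb, genes at the edge of the rule and 4 strain differences; others were chosen after their values were seen. Members and lists were chosen with earlier results of these data known. Nothing in the labels gives litters; p-values measure the spread between single embryos. Figures used matplotlib 3.10.9.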

Additional observations from a re-analysis of the deposited data

Results flagged for a closer look

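In groups of 6 knockout embryos, Dixon's test marked 18 of 170 gene and strain combinations over 85 of the named genes, where chance marks about 1 in 20. In NEO-IN, embryo 1 stood apart at 84767 normalized counts for Hspa5, the highest of its strain, and at 1119 for Snai1, 2525 for Vegfa and 4081 for Zfp36l2, the lowest of its strain. NEO-IN 4 stood apart at 25.9 for Apela, 5927 for Bex4 and 8749.6 for Hk2, and NEO-IN 5 at 592 for Dhtkd1 and 303 for Rsad1.

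In NEO-OUT, embryo 9, whose library holds macrophage markers, stood apart at 857 for D2hgdh, 2669 for Mrps15, 26.4 for Tmem267 and 3006 for Zmat3. NEO-OUT 10 was lowest for Dusp6 (3196) and Hoxb1 (1744). NEO-OUT 8 stood apart at 10621 for Rpl30 and 255586 for Slc2a3, and NEO-OUT 7 at 493 for Zfp697.

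The effects of the strains, each against the same wild-type embryos, differed by the test of NEO-IN versus NEO-OUT (limma, adjusted p under 0.05 over all genes) for 14 of these 85 genes. The log2 difference, NEO-IN minus NEO-OUT, was 0.11 for Abcc1, -2.60 for Apela, -0.51 for D2hgdh, -0.22 for Dnajc3, 0.28 for Gli2, -0.22 for Hspa5, -0.22 for Manf, -0.40 for Phlda3, -0.62 for Pigm, 0.27 for Psmb5, -0.11 for Slc2a3, -0.30 for Snap47, -0.26 for Stard4 and -0.39 for Zfp273.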

How the results depend on the processing

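The 465 genes called in all, and the 391 called outside chromosome 8, became 900 and 792 with DESeq2, 304 and 255 with the Y-linked level in the model, 188 and 149 with a random block for runs of 3 libraries (chosen after seeing the data), 175 and 132 with the 12 knockouts as 1 group, and 98 and 76 with the trophoblast score in the model. Leaving out 1 library in turn gave 153 to 475 and 131 to 394, the lowest without wild-type embryo 1. NEO-IN versus NEO-OUT went from 2180 to 1432 with runs of 3. The 483 separated genes became 84 with a margin of 1.1-fold and 510 to 1003 with 1 library left out. Pseudocount, filter, TMM scaling and edgeR kept each count within 1.5 times its value; edgeR called 488 in all.

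The shared numbers 1 to 3 of wild-type and NEO-IN did not pair the embryos: deviations of same-numbered embryos correlated at 0.07, -0.02 and 0.00. With the number as a replicate block 509 genes were called, 431 outside chromosome 8, and 2180 between the strains, and the 212 called separated genes kept their calls.

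Of the named genes, uncalled ones changed sign: Bpgm to -0.00, mt-Tt to -0.02 and mt-Tw to 0.12 without wild-type embryo 1 (range over the fits without 1 library -0.00 to 0.07, -0.02 to 0.50 and -0.15 to 0.12), and Gata2 to -0.19, Tfap2c to -0.14 and mt-Tw to 0.03 with the trophoblast score. The causes were not tested. Precision is limited by 3 wild-type embryos and, for genes near a mean of 10, by depth.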
